A study of Vitis vinifera with 2 samples.

Results

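The clusters described here are short stretches of the grapevine genome at which 21 nt small interfering RNAs (siRNAs) predominated in leaf and at which no siRNA cluster of any size was found in embryogenic callus (EC). Small RNA of 18 to 35 nt was sequenced from young leaf tissue and from proliferating EC of Vitis vinifera cv. 'Chardonnay', with 1 library per tissue and 50 mg of tissue each. EC, in which dedifferentiated cells multiply in culture and can give rise to embryos, was started here from anthers of the same vines that gave the leaves. Both samples were pools, of several leaves or of several Petri dishes. Mapped siRNAs had been grouped into clusters on the PN40024 12X genome, and each cluster carries a DicerCall, the predominant fragment size among its reads, or N where no size was called. Members were chosen from the leaf list as clusters with a DicerCall of 21 and a length under 500 bp that no EC cluster overlapped by 1 bp or more.

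This rule took 4484 of the 317444 clusters in the series. They were 5.005% of the 89597 leaf clusters and 75.8% of the 5915 leaf 21 nt clusters under 500 bp, while 1431 others of that class and length were overlapped by an EC cluster. Over all size classes, 59.2% of leaf clusters under 500 bp had no overlapping EC cluster. Since the absence from EC chose the members, these shares are given as a description. The number of reads behind a cluster was unknown, so a cluster resting on few reads counted as much as a deep one. Absence of an EC cluster means that none was called, and a locus with few EC reads cannot be told apart from a silent one. Intervals below are 95% exact binomial intervals. They reflect cluster counting alone, treat neighbouring clusters as if these were independent and leave out differences between plants or cultures. With a single library per tissue, no test was made.

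In plants, 21 nt siRNAs are typically produced by DICER-LIKE 4 (DCL4) from double-stranded RNA that RNA-DEPENDENT RNA POLYMERASE 6 (RDR6) makes from Pol II transcripts. They load mainly into AGO1-type Argonaute proteins and direct the cleavage of matching transcripts, which is post-transcriptional silencing, and they also serve non-canonical RNA-directed DNA methylation (RdDM). The 24 nt heterochromatic siRNAs, by contrast, come from Pol IV transcripts through RDR2 and DCL3 and guide canonical RdDM of transposable elements. Secondary 21 nt siRNAs of eudicots are known from trans-acting siRNA loci and from gene families that include NLR resistance genes, pentatricopeptide repeat genes and MYB transcription factors, often after cleavage by a 22 nt miRNA. Which genes or repeats underlie the clusters was not analysed here.

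Leaf-only 21 nt clusters were short. Their median length was 57 bp (interval 55 to 60 bp), with quartiles of 27 and 104 bp, and together they covered 368 kb. Leaf 21 nt clusters that EC clusters overlapped were longer, with a median of 78 bp (74 to 82 bp), and a longer cluster meets an EC cluster more easily, so the rule bears on this difference. EC 21 nt clusters under 500 bp without a leaf cluster, chosen in the mirror way and numbering 3552, had a median of 60 bp (58 to 62 bp). Leaf-only 24 nt clusters, numbering 28904, had a median of 58 bp (57 to 60 bp).

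The most frequent length of the leaf-only clusters was exactly 21 bp, the length of 1 siRNA. It was found in 420 of them (9.37%, interval 8.53 to 10.3%). Among EC-only 21 nt clusters only 58 of 3552 measured exactly 21 bp (1.63%, 1.24 to 2.11%), and among the leaf clusters overlapped by EC 58 of 1431 did (4.05%, 3.09 to 5.21%). A lesser peak stood at 24 bp, with 241 leaf-only clusters (5.37%) and 263 EC-only clusters (7.40%). For comparison, 15.8% of leaf-only 24 nt clusters measured exactly 24 bp. Clusters of 21 bp lay further from any EC cluster than those of 22 to 30 bp, with a median distance of 2346 bp and quartiles of 736 and 4948 bp. The median for the latter was 1314 bp, with quartiles of 376 and 3286 bp.

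At the other end of the range, 1226 leaf-only 21 nt clusters (27.3%) reached 100 bp and 355 (7.92%, 7.14 to 8.75%) reached 200 bp. In the EC-only 21 nt class 2.67% (2.17 to 3.26%) reached 200 bp. Leaf 21 nt clusters overlapped by EC reached such lengths more often, with 37.8% of at least 100 bp and 14.4% (12.6 to 16.3%) of at least 200 bp. The longest leaf-only 21 nt clusters measured 492 bp, on chromosome 14 (5390716 to 5391207, no strand assigned) and on chromosome 19 (7107825 to 7108316, + strand). They were followed by 487 bp on chromosome 14 (2415798 to 2416284) and by 485 bp on chromosomes 13 (21288630 to 21289114) and 15 (12149948 to 12150432), the last 3 without a strand. Just beyond the limit, leaf-only 21 nt clusters of 501, 502 and 508 bp lay on chr18_random, chromosome 18 and chromosome 4, and 81 such clusters of 500 bp or more were left out by the rule.

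**Figure D1:**
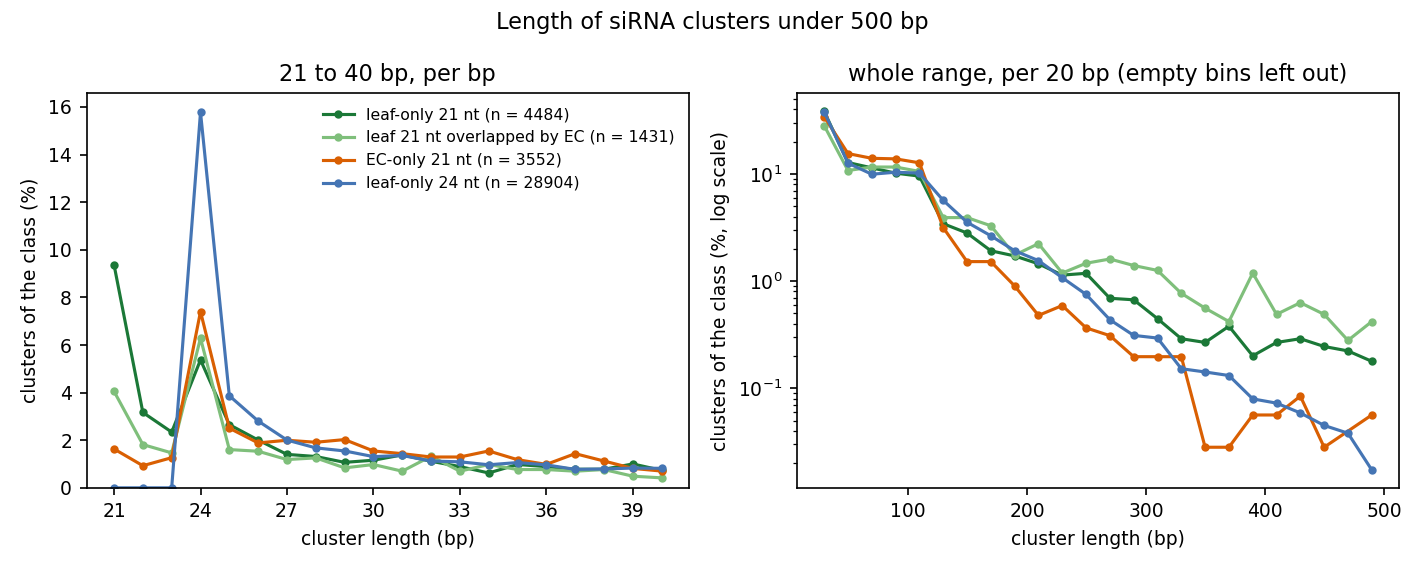
Length of clusters under 500 bp, as the percentage of each class per bp from 21 to 40 bp (left) and per 20 bp on a log scale (right), with lines for leaf-only 21 nt (n = 4484), leaf 21 nt overlapped by EC (n = 1431), EC-only 21 nt (n = 3552) and leaf-only 24 nt clusters (n = 28904). The 21 bp peak of the leaf-only 21 nt class stands at 9.37%, against 1.63% in the EC-only class. Clusters of 200 bp or more are 7.92% and 2.67% of these classes, and 14.4% of leaf 21 nt clusters overlapped by EC.

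ShortStack gives a cluster a strand when its reads come predominantly from that strand. No strand was assigned to 1966 leaf-only 21 nt clusters (43.8%, 42.4 to 45.3%), close to the 43.9% of all leaf clusters under 500 bp. The others divided about equally, with 1309 on the + strand and 1209 on the - strand. The share without a strand rose with length. It was 1.67% at exactly 21 bp (7 of 420), 21.1% at 22 to 30 bp, 46.5% at 31 to 50 bp, 51.5% at 51 to 100 bp, 61.5% at 101 to 200 bp and 78.5% (73.8 to 82.6%) above 200 bp. When clusters over 30 bp of each class were weighted to the lengths of the leaf-only 21 nt clusters, the share without a strand was 56.1% for these, 51.5% for leaf 21 nt clusters overlapped by EC, 55.7% for EC-only 21 nt and 57.4% for leaf-only 24 nt clusters. Without weighting, the leaf-only share exceeded that of the overlapped clusters on 7 of 19 chromosomes.

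Many leaf-only 21 nt clusters stood in groups. Joining those at most 5 kb apart gave 2492 single clusters and 634 groups of 2 or more that held the other 1992 clusters (44.4%, 43.0 to 45.9%). Of all leaf clusters, 11.5% had a leaf-only 21 nt cluster within 5 kb. There were 337 groups of 2, 120 of 3, 66 of 4 and 111 of 5 to 13 clusters, the last holding 694 clusters (15.5%). Neighbours within 5 kb were mostly much closer than that, with a median gap of 340 bp (quartiles 139 and 907 bp), whereas over all neighbouring leaf-only 21 nt clusters the median gap was 39.7 kb. The smallest gap was 74 bp, and 475 of 4452 gaps (10.7%) were of 200 bp or less. That minimum was common to the classes, with 75 bp for overlapped leaf 21 nt, 74 bp for EC-only 21 nt and 73 bp for leaf-only 24 nt clusters.

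The grouping was set against other leaf clusters by asking how many of them had a leaf-only 21 nt cluster in reach. Within 5 kb this held for 24.2% (22.05 to 26.6%) of leaf 21 nt clusters overlapped by EC and for 8.61% (8.29 to 8.94%) of leaf-only 24 nt clusters, against 44.4% of the leaf-only 21 nt clusters themselves. The leaf-only 21 nt share was the highest of the 3 on each of 19 chromosomes. Within 500 bp the shares were 28.5%, 9.85% and 1.16%. Any other leaf 21 nt cluster lay within 5 kb of 47.7% (46.3 to 49.2%) of leaf-only 21 nt clusters. For the overlapped 21 nt clusters this was 38.6% (36.1 to 41.2%). Another cluster of their own class lay within 5 kb of 26.3% of the overlapped 21 nt clusters. The same held for 16.4% (15.2 to 17.6%) of the 3552 EC-only 21 nt clusters. It held for 61.7% of the 28904 leaf-only 24 nt clusters, a more numerous class, and class size was not corrected for. Lying near others of the same class was thus more frequent for leaf-only 21 nt clusters than for the overlapped and EC-only 21 nt clusters. Leaf-only 24 nt clusters shared it.

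**Figure D2:**
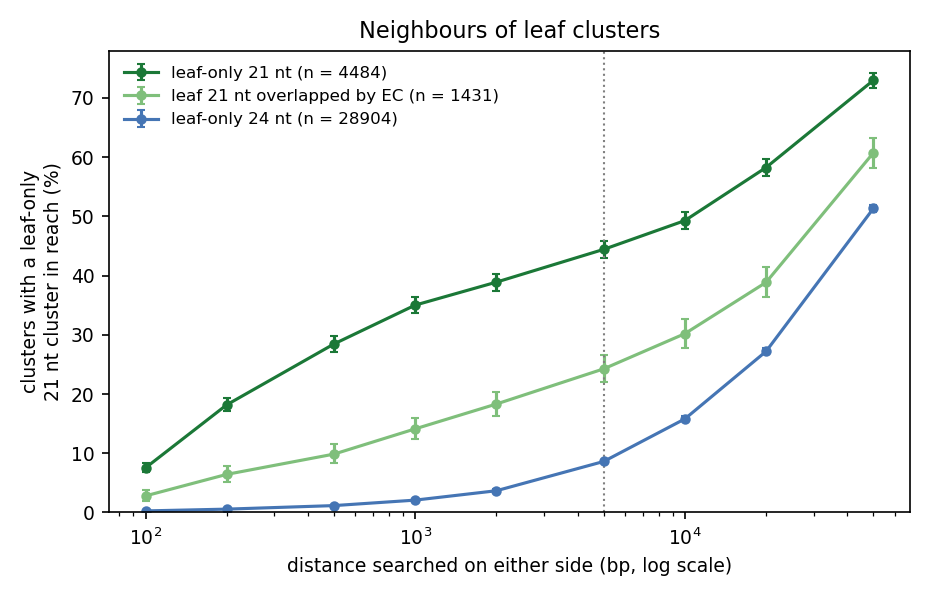
Percentage of leaf clusters that had a leaf-only 21 nt cluster, other than themselves, within the distance on the x axis (bp, log scale), with 95% exact binomial bars, for leaf-only 21 nt, leaf 21 nt overlapped by EC and leaf-only 24 nt clusters. At the dotted line of 5 kb the values are 44.4%, 24.2% and 8.61%.

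Between the first and the last member of the 634 groups lay 490 further leaf clusters outside the chosen class. Of these, 108 (22.04%, 18.4 to 26.0%) were 21 nt clusters that an EC cluster overlapped or that reached 500 bp, 111 (22.7%, 19.02 to 26.6%) were of 24 nt and 190 had no size call. Within groups of leaf-only 24 nt clusters formed in the same way, 21 nt clusters made up 4.88% (4.35 to 5.45%) of the 6111 further leaf clusters, and 6.82% of all leaf clusters were of 21 nt. In groups of 5 or more, 61 of 156 further clusters were of 21 nt (39.1%, 31.4 to 47.2%), 18 were of 22 nt (11.5%) and 21 were of 24 nt (13.5%). In the 17 groups of 8 or more, 0 of the 22 further clusters were of 24 nt, for which the exact interval reaches 15.4%, while 24 nt clusters were 59.8% of the leaf list.

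The largest group held 13 leaf-only clusters over 6977 bp of chromosome 18 (26578382 to 26585358). The first 12 followed each other over the first 3711 bp with gaps of 86 to 348 bp, and the last stood 3166 bp apart. Their lengths ran from 21 to 401 bp. Of the 13, 7 had no strand, 3 were on the + strand and 3 on the - strand. The remaining leaf clusters in the span were 1 of 21 nt, which a 22 nt EC cluster overlapped, and 1 of 22 nt. In EC there were besides only 2 clusters of 24 nt, both in the empty stretch before the last member.

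A group of 12 on chromosome 11 (17604512 to 17620955) was drawn out over 16444 bp, of which its clusters covered 5.84%. A group of 11 on chromosome 14 (5381297 to 5391207) spanned 9911 bp, with 6 clusters in its first 2450 bp, a lone one further on and 4 at its end. All 6 EC clusters of its span lay between the lone cluster and these last 4. By contrast, 11 clusters on chromosome 19 (22806351 to 22809839) covered 52.0% of 3489 bp, with 5 on the - strand and 1 on the + strand, and no EC cluster lay in the span. The same was true of 11 clusters on chromosome 13 (21156896 to 21160100), which covered 32.3% of 3205 bp. In that group every leaf cluster was a leaf-only 21 nt cluster, which held for no other of the 10 groups named here. The sixth, on chromosome 13 (22113944 to 22122216, 10 clusters), enclosed a 21 nt cluster over the length limit. Groups of 9 were found on chromosome 12 (17284134 to 17287816), with 2 EC clusters in the span, and on chromosomes 13 (21718029 to 21721179) and 6 (17411768 to 17414547), with 0 EC clusters each. The last, on chromosome 4 (10520515 to 10527950), had the longest span of the 8 groups of 8 clusters.

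**Figure D3:**
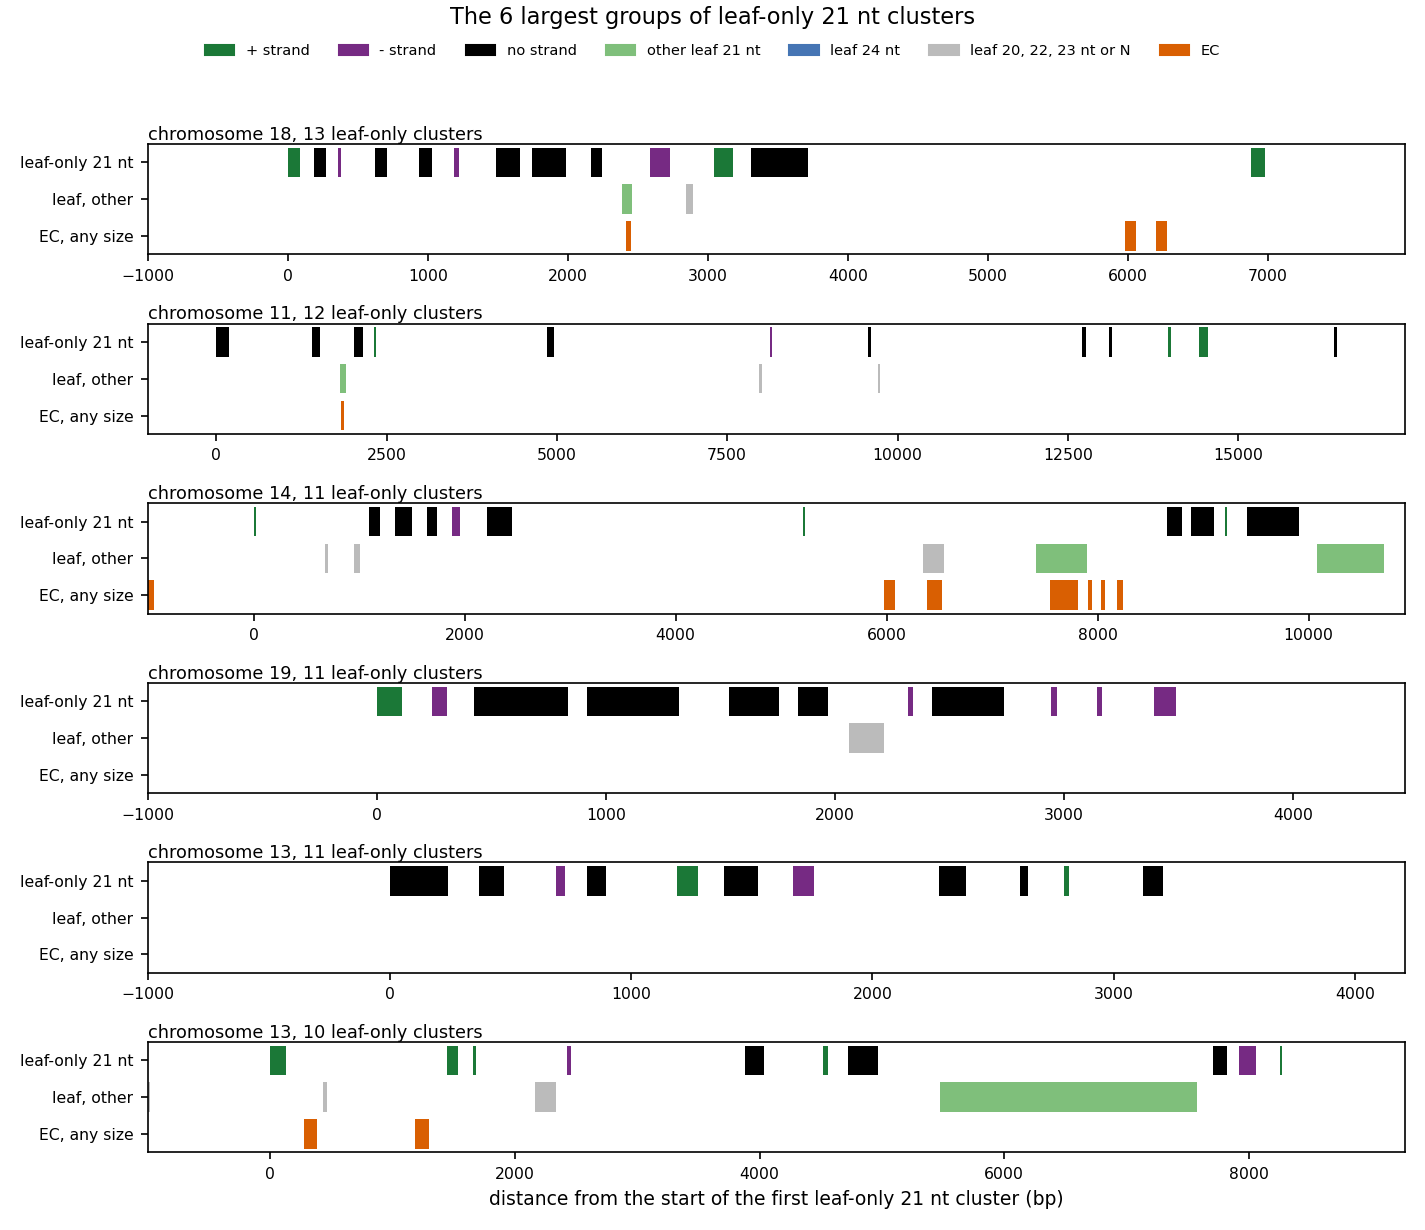
Maps of the 6 largest groups, with the distance in bp from the start of the first leaf-only 21 nt cluster on the x axis and boxes for leaf-only 21 nt clusters coloured by strand, other leaf clusters and EC clusters. No leaf 24 nt cluster lies between the first and last member of any of the 6, and the groups of 11 on chromosomes 19 and 13 have 0 EC clusters.

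Groups were examined for a 21 nt register, which successive cuts by a Dicer enzyme from a fixed start would leave. The distance between starts of neighbouring leaf-only clusters within 5 kb was a multiple of 21 in 73 of 1352 pairs (5.40%, 4.26 to 6.74%), where an equal spread over remainders gives 4.76%. The other remainders ran from 3.55 to 5.84%. Within 500 bp it was 5.18% (3.67 to 7.07%) of 714 pairs. No register was thus detectable from cluster edges, and the positions of single reads, on which phasing is usually judged, were not given. Where neighbours within 5 kb both had a strand, it was the same strand in 181 of 329 pairs (55.0%, 49.5 to 60.5%). The share was 50.5% (48.8 to 52.2%) for leaf-only 24 nt clusters.

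Grouped and single clusters differed in form. Median length rose from 47 bp (44 to 49 bp) in the 2492 single clusters to 68 bp (63 to 72 bp) in groups of 2 to 4 and 96 bp (86 to 104 bp) in groups of 5 or more. The share of at least 100 bp rose from 18.1% to 34.0% and 48.1%, and that without a strand from 38.5% (36.6 to 40.4%) to 46.7% and 57.8% (54.0 to 61.5%). For clusters over 30 bp weighted to equal lengths, the latter shares were 53.2%, 56.5% and 61.4%. Long 21 nt clusters of leaf, of 500 bp or more, were close by for 34.1% (30.6 to 37.8%) of clusters in groups of 5 or more and for 1.003% (0.650 to 1.48%) of single ones, within 5 kb in both cases. Clusters of 22 nt lay within 5 kb of 21.5% (18.5 to 24.7%) and 6.26% (5.34 to 7.28%), respectively. Of all leaf clusters, 1.09% had a long 21 nt cluster and 5.68% a 22 nt cluster within 5 kb, so single clusters were near these values.

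EC clusters were fewer around leaf-only 21 nt clusters than around leaf-only 24 nt clusters. The nearest EC cluster lay at a median of 1564 bp (interval 1477 to 1657 bp, quartiles 456 and 3575 bp), against 493 bp (481 to 503 bp) for leaf-only 24 nt clusters, which the rule had likewise freed of EC overlap. An EC cluster within 5 kb was found for 84.7% (83.6 to 85.8%), and for 94.0% of leaf-only 24 nt clusters. The value over all leaf clusters was 95%, but these include the clusters that EC overlapped, so the rule bears on that difference. The mean number of EC clusters within 5 kb was 3.82, against 5.64 for leaf-only 24 nt clusters, and it was the lower of both on each of 19 chromosomes. The nearest EC cluster was of 24 nt in 61.9% (60.5 to 63.3%) of cases, against 76.5% (76.0 to 77.0%) for leaf-only 24 nt clusters, and of 21 nt in 9.30% (8.47 to 10.2%) against 2.15% (1.98 to 2.32%). In the whole EC list 77.1% of clusters were of 24 nt and 1.98% of 21 nt, close to the values for leaf-only 24 nt clusters.

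From 500 to 1000 bp beyond the cluster edge, EC clusters numbered 0.350 per kb beside leaf-only 21 nt clusters and 0.644 per kb beside leaf-only 24 nt clusters, against 0.469 per kb over all sequences. These flanks can hold further clusters that the rule had freed of EC overlap, and for the clusters in groups of 5 or more, with 0.268 per kb, the rule bears on the value in this way. Single clusters have no other cluster of their class within 5 kb. Beside these the values were 0.425 per kb for leaf-only 21 nt clusters and 0.621 per kb for the 11070 single leaf-only 24 nt clusters. In the nearest 500 bp they were 0.507 and 0.745 per kb, so the closest flank of single leaf-only 21 nt clusters was not below the value over all sequences. At 4 to 5 kb the single clusters differed less, at 0.438 and 0.492 per kb. Within the spans of the 634 groups there were 315 EC clusters, or 0.243 per kb, and 475 groups (74.9%, 71.4 to 78.3%) had none. Groups of 2 or more leaf-only 24 nt clusters held 0.657 EC clusters per kb. Of these groups 34.8% had none, but their median span of 2740 bp, against 1498.5 bp for the 21 nt groups, left more room for one. The chosen clusters themselves, which EC cannot overlap by the rule, took up 16.1% of the 21 nt spans and 6.89% of the 24 nt spans. Per kb of the remaining span there were 0.289 and 0.705 EC clusters, respectively.

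**Figure D4:**
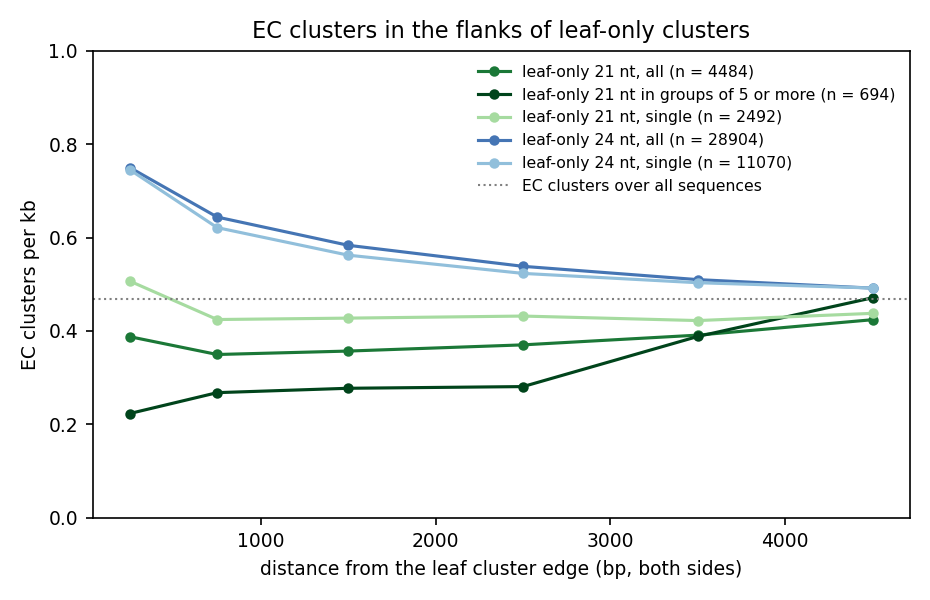
EC clusters of any size per kb (y axis) against distance from the edge of leaf-only clusters in bp on both sides (x axis, points at bin centres), for leaf-only 21 nt clusters together, in groups of 5 or more and single, and for leaf-only 24 nt clusters together and single. Between 500 and 1000 bp the values are 0.350, 0.268, 0.425, 0.644 and 0.621 per kb, and the dotted line marks 0.469 per kb over all sequences.

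The larger groups were nevertheless not always apart from 21 nt clusters of EC. Of the 111 groups of 5 or more, 19 had an EC 21 nt cluster in their span and 44 (39.6%, 30.5 to 49.4%) had one within 5 kb of it. A 21 nt EC cluster was within 5 kb of 33.4% (29.9 to 37.1%) of the clusters in such groups and of 8.67% (7.59 to 9.84%) of single ones, where 11.6% of all leaf clusters had one. In 39 of these groups a leaf 21 nt cluster under 500 bp that EC clusters did overlap lay in the span or within 5 kb. Only 6 of the 111 had no EC cluster of any size in the span or within 5 kb. They comprised 7 clusters on chromosome 13 (458570 to 467320) and 6 on chromosome 4 (4893780 to 4896987). The remaining 4 had 5 clusters each. Of these, one lay on chromosome 8 (18986636 to 18991925) and one on chromosome 18 (10825372 to 10830507). The others were on chromosomes 12 (19751772 to 19753692) and 19 (22475280 to 22477200). The leaf-only clusters farthest from any EC cluster were neighbours on chromosome 19 (21635949 to 21635974 and 21636078 to 21636123), 40949 and 41078 bp away.

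Leaf-only 21 nt clusters occurred on 32 of 33 sequences, with 4059 (90.5%) on chromosomes 1 to 19, 251 on the unplaced sequence chrUn and 174 on the "random" sequences, whose chromosome is known but whose place along it is not. The chromosomes carried 9.52 per Mb. Chromosome 13 had most, 390 or 16.0 per Mb, which was 8.08% (7.33 to 8.89%) of its leaf clusters, and chr13_random had 66, or 20.2 per Mb. Chromosomes 18 (12.6 per Mb), 9 (11.6 per Mb) and 12 (11.4 per Mb) followed. As a share of leaf clusters, chromosome 9 had 7.26% (6.44 to 8.14%), whose interval overlapped that of chromosome 13. Chromosome 16 had fewest, 115 or 5.21 per Mb, which was 2.76% (2.29 to 3.31%) of its leaf clusters. Leaf 21 nt clusters under 500 bp that EC overlapped were also most numerous on chromosomes 13 (108) and 18 (104). The leaf-only share of all leaf 21 nt clusters under 500 bp was 78.3% (74.4 to 81.9%) on chromosome 13. On chromosome 16 it was 70.1% (62.5 to 77.0%), and over all sequences 75.8%. The high count on chromosome 13 was thus shared by leaf 21 nt clusters in general. The length of a sequence was approximated by the end of its last leaf or EC cluster.

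On chromosome 13 the clusters were unevenly spread. The stretch from 21 to 23 Mb, which takes in the richest window of 1 Mb, held 136 of the chromosome's 390 clusters (34.9%). Outside this stretch the density was 11.3 per Mb, still above the 9.13 per Mb over the other 18 chromosomes. The window from 21 to 22 Mb alone held 90, which was 22.4% of its 402 leaf clusters, against a median of 7.5 over 420 windows of 1 Mb. Leaf clusters of all sizes were also more numerous there than the median of 198.5 per window. The same window held 11 EC-only 21 nt clusters. Next came the window from 17 to 18 Mb of chromosome 12 with 57. The windows on either side of the richest one on chromosome 13 had 47 (20 to 21 Mb) and 46 (22 to 23 Mb), and the window from 26 to 27 Mb of chromosome 18 also had 46. The 10 richest windows held 483 of the 3989 clusters in these windows (12.1%), and 4 windows had none. Of the 111 groups of 5 or more, 27 lay on chromosome 13, 22 of them beyond 18 Mb, and 15 on chromosome 18, while chromosomes 2 and 16 had none. On chromosome 13, 72.8% of leaf-only 21 nt clusters had another within 5 kb, and on chromosome 17, the lowest, 24.2% did.

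Along the chromosomes the clusters were densest towards the ends. With each chromosome divided into 5 equal parts, 1002, 761, 514, 670 and 1112 clusters fell into the parts from start to end. The 2 end parts together held 52.1% (50.5 to 53.6%), against 44.9% (44.5 to 45.2%) of all leaf clusters. Leaf-only 24 nt clusters had 44.6% (44.0 to 45.2%) there, and those leaf 21 nt clusters that EC overlapped had 44.8% (42.002 to 47.6%). In the EC-only 21 nt class it was 37.1% (35.4 to 38.9%). The richest part was at an end on 17 of 19 chromosomes, a count that was not made for other leaf clusters. All leaf clusters, pooled over the chromosomes, were also most frequent in the first part (22.6%) and the last part (22.3%). Leaf-only 21 nt clusters had 24.7% and 27.4% there. Without chromosomes 13 and 18 they had 26.7% (25.1 to 28.2%) in the first part and 22.1% (20.7 to 23.6%) in the last. The excess in the last part thus rested on these chromosomes, though the removal was not made for all leaf clusters. Clusters in groups of 5 or more lay at the ends in 71.7% (68.0 to 75.2%), and 50.8% (46.8 to 54.8%) were in the last part alone. Without chromosome 13 the last part held 43.7% of them, and without chromosomes 13 and 18 it held 35.3% (30.3 to 40.6%) and the first part 30.5% (25.7 to 35.6%). The start and end of a chromosome are a convention of the assembly.

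**Figure D5:**
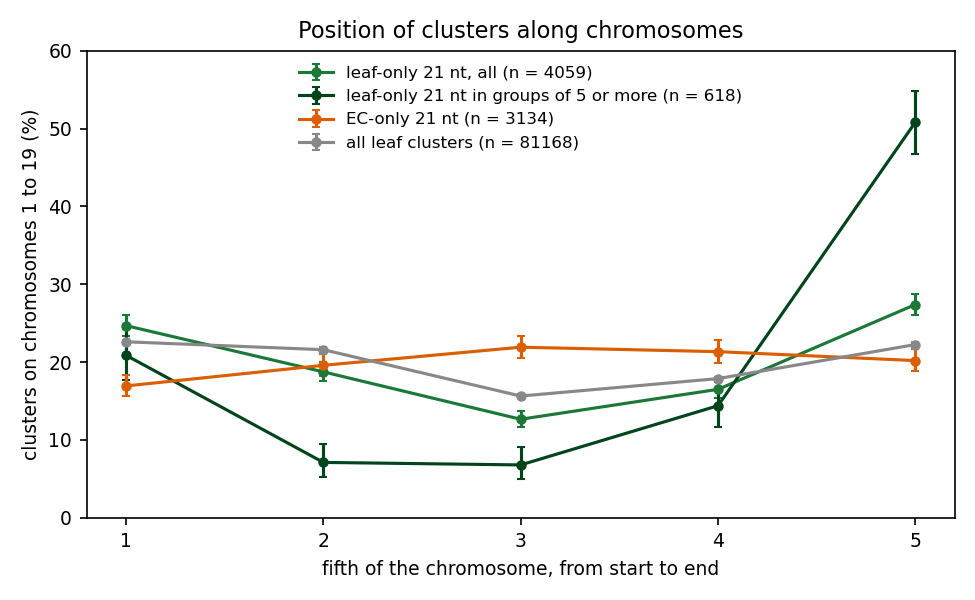
Percentage of clusters on chromosomes 1 to 19 in each of 5 equal parts of the chromosome, with 95% exact binomial bars, for leaf-only 21 nt clusters, those in groups of 5 or more, EC-only 21 nt clusters and all leaf clusters. The middle part holds 12.7% of leaf-only 21 nt clusters and 6.80% of those in groups of 5 or more. It holds 15.6% of all leaf clusters and 21.9% of EC-only 21 nt clusters.

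ShortStack marked 2 of the 4484 clusters as miRNA loci, although reads of identified miRNAs had been removed before mapping. They lay on the + strand of chromosome 1 (731614 to 731704, 91 bp) and of chromosome 12 (17937409 to 17937487, 79 bp), 2035 and 2561 bp from the nearest EC cluster, and neither had another leaf-only 21 nt cluster within 5 kb. The mark was thus carried by 0.0446% (0.00540 to 0.161%) of the leaf-only clusters and by 10 of 1431 leaf 21 nt clusters that EC clusters overlapped (0.699%, 0.336 to 1.28%). Among EC-only 21 nt clusters 1 of 3552 had it.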

How the data were processed

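Per the study's methods, the authors trimmed and size filtered the reads in the UEA small RNA Workbench, removed tRNA and rRNA reads with PatMaN and then miRNA reads, mapped the remainder to PN40024 12X and called clusters with ShortStack, which places multi-mapping reads by the uniquely mapping reads nearby. The setting of minimum coverage or padding is not given in the sources used here. Both deposited lists, 1 per tissue, hold start, end, strand, DicerCall and a miRNA mark. The score column was empty (0 scores), so depth per cluster is unknown and no depth correction was possible, which can affect which leaf clusters lack an EC partner. By the study's read counts, more reads were mapped to the genome in the EC library than in the leaf library after miRNA removal.

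Distances, groups and positions were computed with Python 3.11.15, pandas 2.3.3 and SciPy 1.17.1, and tested on simulated intervals. Groups join clusters with a gap of at most 5 kb. Windows of 1 Mb and 5 parts per chromosome used cluster midpoints. Intervals are 95% exact binomial (Clopper-Pearson), and those of medians come from binomial ranks. The members, comparisons and rules for what is named were chosen with earlier results of these data known. Named were the 10 largest groups (ties by longer span), the 5 longest clusters, those next to the length limit and those with a miRNA mark. The 6 groups without EC clusters nearby, the farthest clusters and the richest windows were chosen after their values were seen. Genes, planned gene lists, repeats and sequences were not used, for want of a genome and annotation of this build in the analysis.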

Additional observations from a re-analysis of the deposited data

How the results depend on the processing

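Of 23 alternatives laid down in advance, 2 on gene overlap were not run, since no annotation of the build was used, and 4 were added after the files were opened. The number of clusters fell from 4484 to 2471 when at least 50 bp was required and to 1226 at 100 bp. It stayed within 1.5 times under the 7 other settings, from 3280 with no EC cluster within 500 bp to 5547 when only an EC 21 nt cluster counted as overlap. The share in groups was 35.0% with gaps of at most 1 kb, 49.3% with 10 kb, 46.9% with no EC cluster within 500 bp and, as an added setting, 41.7% without chromosome 13. The share without a strand was 58.9% from 50 bp and 66.2% from 100 bp. The share in the middle part of chromosomes and the median length stayed within their intervals. No paired analysis was possible because there was just 1 leaf and 1 EC library. Reads per cluster, which set how firmly an absence from EC can be stated, were unknown.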
